A study of Mus musculus with 8 samples.

Results

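The 53 genes described here carry a cell through G2, mitosis and the spindle checkpoint. They were taken from the deposited table of 55487 mouse genes by symbol, after the version was cut from each gene identifier, and all 53 were found there. RNA had been sequenced in bulk from cells labelled as pro-B cells, B lineage precursors of the bone marrow. There were 4 libraries labelled CD25_KO and 4 labelled WT, numbered 1 to 4 in each group by their titles and written KO1 to KO4 and WT1 to WT4 below. CD25, the alpha chain of the receptor for the cytokine interleukin 2, is encoded by Il2ra, and the series asks how CD25-deficient cells of this stage differ from CD25-sufficient ones. The labels used here give no strain, age, treatment or allele, and do not say whether the libraries of a group came from separate animals. The p-values therefore measure only the spread between these libraries, which may be technical in part.

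A cell that has copied its DNA enters mitosis when cyclin A and cyclin B activate the kinase CDK1, a step opened by CDC25 phosphatases and driven on by the Polo-like and Aurora kinases. Chromosomes are compacted by condensin, captured by microtubules at their kinetochores, and held back by the spindle checkpoint until every kinetochore is attached. CDC20 and the anaphase-promoting complex then destroy securin and cyclin B, separase cuts cohesin, and kinesins and anillin complete cytokinesis. Most of these genes are transcribed as a late cell cycle programme through MuvB complexes with B-MYB or FOXM1, which act on CHR elements and CCAAT boxes near the start site. Early B lineage cells in the marrow alternate between bursts of division and resting periods of receptor gene rearrangement.

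The promoters show what these genes share beyond function. Of the 53 genes, 43 had a promoter in the RefSeq sequences used (GRCm38.p6, 250 bases before to 50 after the start site), and 29 of the 43 (67.4%) held the CHR letters TTTGAA or their reverse complement TTCAAA. Over the 27025 genes with such a promoter the share was 20.2%. The CCAAT box, searched as CCAAT and ATTGG, was found in 31 of the 43 (72.1%), against 41.1% of all promoters. Both motifs stood together in 25 of the 43 (58.1%), against 8.97% of all promoters, and neither stood in 8 (18.6%), against 47.7%. In Kntc1 the motifs share 1 base. A match describes letters in a window and is not evidence of binding. The stretches below were chosen to set members that differ in their values side by side. They are 110 bases each, 5′ to 3′ on the strand of the gene, ending at the base before the RefSeq start site, with the CHR and CCAAT letters of either strand in capitals. Cdk1 is at chr10:69352913-69353022, minus strand. Top2a is at chr11:99024190-99024299, minus strand. Ube2c is at chr2:164769819-164769928, plus strand. Cdc20 is at chr4:118437344-118437453, minus strand. Kif11 is at chr19:37376272-37376381, plus strand, and Kntc1 at chr5:123749616-123749725, plus strand.
Cdk1: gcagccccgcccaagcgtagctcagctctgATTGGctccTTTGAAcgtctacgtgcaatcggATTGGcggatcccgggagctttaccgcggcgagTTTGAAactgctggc
Top2a: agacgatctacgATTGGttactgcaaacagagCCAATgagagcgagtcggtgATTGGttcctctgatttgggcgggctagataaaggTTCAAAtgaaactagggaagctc
Ube2c: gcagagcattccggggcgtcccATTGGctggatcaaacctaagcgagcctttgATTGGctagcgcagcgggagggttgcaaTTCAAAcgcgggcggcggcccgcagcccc
Cdc20: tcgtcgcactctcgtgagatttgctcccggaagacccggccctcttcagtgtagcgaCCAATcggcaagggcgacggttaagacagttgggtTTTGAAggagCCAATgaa
Kif11: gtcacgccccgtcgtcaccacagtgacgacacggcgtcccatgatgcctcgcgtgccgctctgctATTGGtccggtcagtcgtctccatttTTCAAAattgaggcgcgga
Kntc1: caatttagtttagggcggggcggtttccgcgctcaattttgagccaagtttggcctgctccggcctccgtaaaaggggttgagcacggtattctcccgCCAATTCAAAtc
All 6 stretches hold both motifs, so they do not represent the members that lack either. The 6 genes span the range of values described below, with Kntc1 at the low end of the fold changes and Cdc20 at the high end. Among members with the CHR letters the median log2 fold change was -0.57, and 17 of 29 had an unadjusted p under 0.05. Those with a promoter but without the letters had a median of -0.60, with 10 of 14 under 0.05. The 10 members without a promoter in the table had a median of -0.21, with 2 under 0.05.

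Il2ra, the gene named in the genotype, had 145, 168, 244 and 168 CPM in KO1 to KO4, against 200.2, 216, 216 and 140.4 CPM in WT1 to WT4. CPM are counts relative to library size after TMM scaling. The groups overlapped, and the log2 fold change of CD25_KO over WT was -0.09 ± 0.19 (SE; edgeR adjusted p = 0.849). Counts summed over all exons do not show whether particular exons are missing, so Il2ra does not check the labels, and the libraries are called by their labels throughout. Each library held 43974037 to 57988772 counts. The pro-B and pre-B cell markers were present in every library, with a sum over 14 genes of 8996 to 10603 CPM in CD25_KO and 8848 to 10406 CPM in WT, although Kit, the stem cell factor receptor of early progenitors, lay at only 0.701 to 3.20 CPM over the 8 libraries. Y-linked genes summed to 505 CPM in KO2 and KO4 and 483 CPM in WT2, and to at most 2.79 CPM in the other 5. WT2 also held 60 CPM of Xist, the RNA of the inactive X chromosome, which lay at 0.348 and 1.12 CPM in KO2 and KO4 and at 370 to 482 CPM in the libraries without Y-linked counts.

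Values were lower in CD25_KO than in WT for 49 of the 53 cell division genes and higher for Cdc20, Mybl2, Cenpa and Smc4. Smc4 turned lower with upper quartile factors in place of TMM. Without WT2 all 53 were lower, with log2 fold changes of -0.01 for Cdc20, Mybl2 and Cenpa and -0.12 for Smc4. In the reported fit the members' median log2 fold change of CD25_KO over WT was -0.57, with a range of -0.98 to 0.23. The median over the 18884 genes tested was 0.00. All 53 passed the count filter. None passed the adjusted threshold of 0.05 in edgeR's quasi-likelihood test, nor did any other gene (0% of the 18884, smallest adjusted p = 0.391). DESeq2 called 6 genes, 3 higher and 3 lower, none of them a member, and limma-voom called 0. At an unadjusted p under 0.05, 29 members (54.7%) were lower and 0 were higher, against 7.11% of all tested genes lower and 5.53% higher. That count rested in part on single libraries, since it was 14 without KO1 and 8 without WT2. Genes passing over the whole table fell as well. They numbered 2388 of 18884 in either direction in the reported fit, 1195 of 19563 without KO1 and 1208 of 19342 without WT2. The members' median log2 fold change was -0.38 without KO3. Because RNA came from whole samples, fewer dividing cells and less of these RNAs per dividing cell cannot be told apart.

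**Figure D1:**
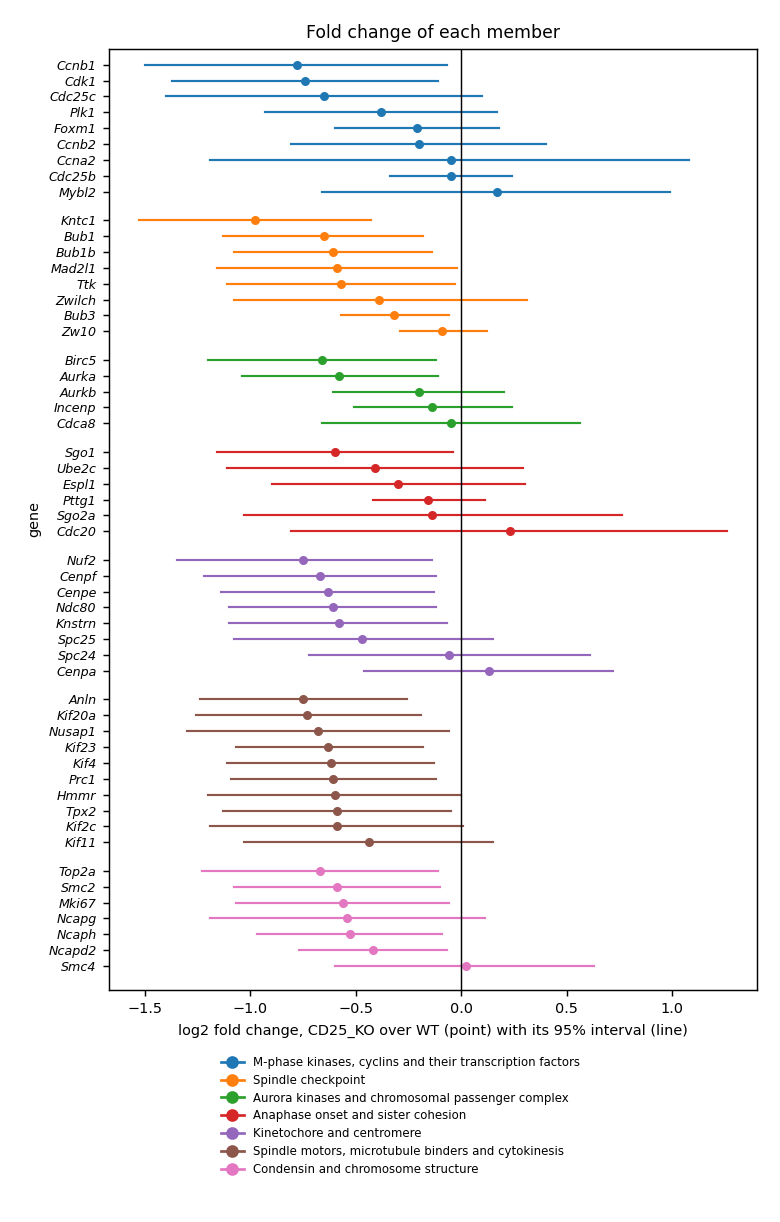
Log2 fold change of CD25_KO over WT for each of the 53 genes (point) with its 95% interval (line), coloured by role, from edgeR on 4 libraries per group. The points lie between -0.98 (Kntc1) and 0.23 (Cdc20), with 49 left of 0 and 29 intervals that leave out 0 before adjustment.

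In 28 members every CD25_KO library lay below every WT library (52.8%), against 4.17% of all tested genes. There were 0 members in which every CD25_KO library lay above every WT library, against 2.62% of all tested genes. The other 25 overlapped. The low values were unequal among the CD25_KO libraries. KO3 was the lowest of the 8 libraries in 45 members, against 20.4% of all tested genes, and KO1 was second lowest behind it in 38, against 10.2%. KO1 lay below all 4 WT libraries in 41 members, KO2 in 30, KO3 in 46 and KO4 in 31. Over all genes these shares were 28.2% for KO1, 15.6% for KO2, 29.6% for KO3 and 20.5% for KO4. The 53 genes together took 0.534%, 0.784%, 0.399% and 0.784% of the counts in KO1 to KO4, against 0.852%, 0.853%, 0.791% and 0.906% in WT1 to WT4. KO2 and KO4 therefore sat just under the lowest WT library, WT3, and KO1 and KO3 well under it.

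The mean deviation of the 53 genes from their own means, on the log2 CPM scale, was -0.38, 0.15, -0.90 and 0.16 in KO1 to KO4 and 0.23, 0.16, 0.16 and 0.43 in WT1 to WT4. KO2 and KO4 reached the level of WT2 and WT3 on this measure, which weights every gene equally. The spread was correspondingly wider among the CD25_KO libraries. The SD of log2 CPM had a median over the members of 0.56 in CD25_KO and 0.15 in WT, while over all genes of at least 5 CPM it was 0.20 in CD25_KO and 0.21 in WT. The spread was larger in CD25_KO for 43 of the 53, against 40.1% of all such genes. Among the WT libraries alone, 40 of the 53 members lay within a 1.5-fold range.

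**Figure D2:**
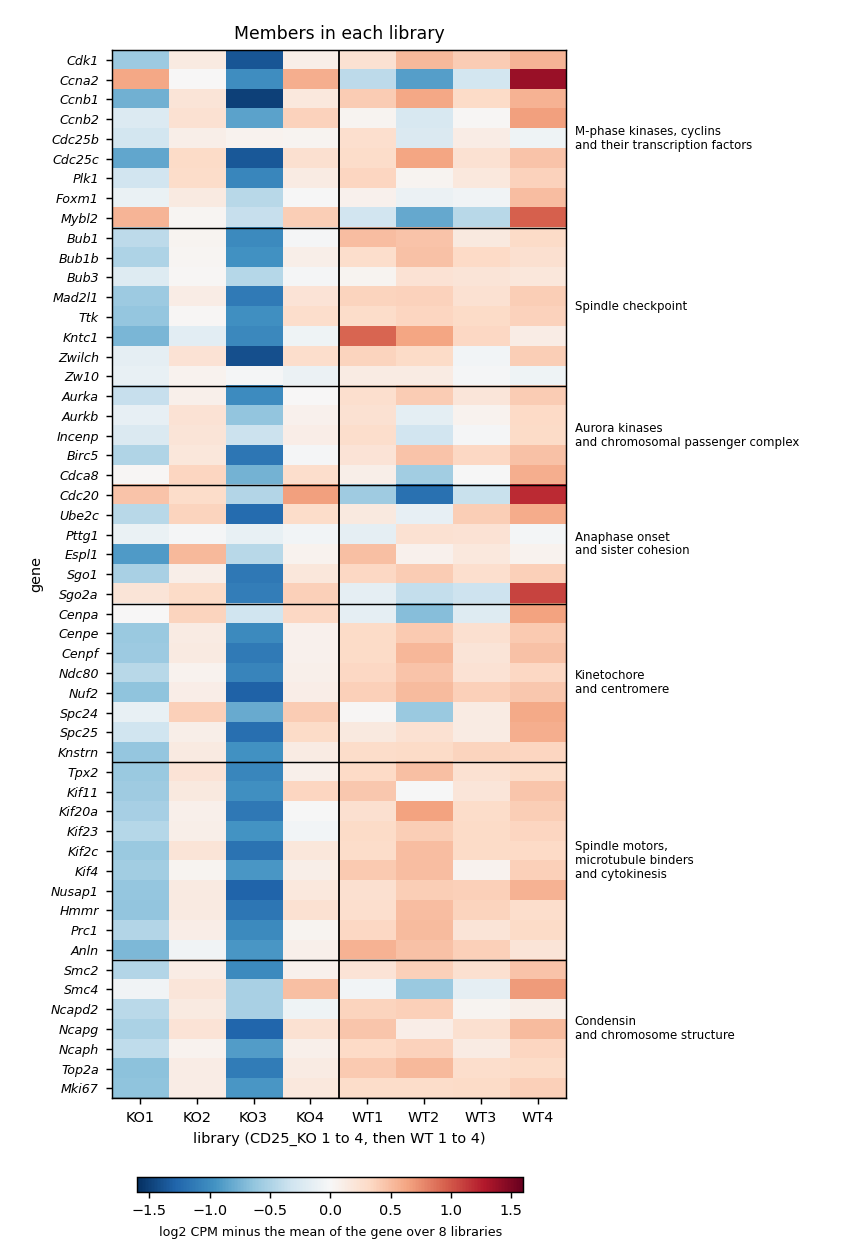
Log2 CPM of each of the 53 genes in each library minus the gene's mean over the 8 libraries, with the CD25_KO libraries left of the WT libraries and genes grouped by role. KO3 is the lowest library in 45 genes and KO1 second lowest in 38 of these, and WT4 stands out as the highest library for Ccna2, Mybl2, Cdc20 and Sgo2a.

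Among the kinases, cyclins and transcription factors of M phase, 8 of 9 were lower in CD25_KO, with a median log2 fold change of -0.21, and 2 of 9 reached an unadjusted p under 0.05. Cdk1, the mitotic cyclin-dependent kinase (ENSMUSG00000019942.13, chromosome 10, 69335146 to 69352938 on the minus strand of mm10), had 99.4, 164, 57.5 and 159 CPM in KO1 to KO4, against 176, 213, 197 and 216 CPM in WT1 to WT4. All CD25_KO libraries lay below all WT libraries, with KO1 and KO3 furthest down, and the log2 fold change was -0.74 ± 0.28 (SE; edgeR unadjusted p = 0.0264, adjusted p = 0.391). Ccnb1, cyclin B1, had the lowest fold change of the group. It had 123, 241, 74.3 and 235 CPM in KO1 to KO4 and 276, 320.5, 258 and 306 CPM in WT1 to WT4, with a log2 fold change of -0.78 ± 0.32 (SE; edgeR adjusted p = 0.391). Its groups did not overlap either, and KO3 held less than any other library.

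The partner cyclin and the transcription factors lay closer together between the groups. Ccnb2, cyclin B2, had the highest level of all 53 genes per length, at 113 CPM per kilobase of exon in CD25_KO and 130.3 in WT. Its CPM were 154, 211, 98.5 and 231 in KO1 to KO4 and 185, 149.9, 182 and 281 in WT1 to WT4. These overlapped, and both KO2 and KO4 exceeded 3 of the 4 WT libraries. Plk1, the Polo-like kinase of mitotic entry, had 56.2, 85.0, 33.8 and 76.1 CPM in KO1 to KO4 and 88.2, 71.8, 77.9 and 89.4 CPM in WT1 to WT4. Foxm1, a forkhead activator of the G2 and M phase programme, had 28.9, 34.5, 22.9 and 31.1 CPM in KO1 to KO4 and 32.8, 29.1, 29.9 and 44.0 CPM in WT1 to WT4. Mybl2, which encodes the B-MYB partner of the MuvB complex, had 32.7, 23.0, 17.5 and 29.6 CPM in KO1 to KO4 and 18.2, 12.8, 16.6 and 43.8 CPM in WT1 to WT4. For Mybl2 the WT libraries spanned the CD25_KO libraries, with WT4 highest and WT2 lowest of all 8. Among Cdc25b, Cdc25c and Ccna2, the log2 fold changes were -0.05, -0.65 and -0.05, and the groups overlapped in each. Cdc25c, whose product removes the inhibitory phosphates from CDK1, had 15.7, 34.5, 10.9 and 33.2 CPM in KO1 to KO4 and 34.1, 43.0, 32.8 and 38.0 CPM in WT1 to WT4, so that KO2 and KO4 reached only the lower end of WT.

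In the spindle checkpoint all 8 members were lower in CD25_KO (median log2 fold change -0.58), and 6 of 8 reached an unadjusted p under 0.05. Kntc1 encodes ROD, which with ZWILCH and ZW10 forms the complex that recruits dynein and the MAD1 and MAD2 proteins to unattached kinetochores. Kntc1 (ENSMUSG00000029414.11, chromosome 5, 123749716 to 123821593 on the plus strand of mm10) had 16.9, 25.0, 13.7 and 26.7 CPM in KO1 to KO4, against 53.3, 43.3, 35.3 and 30.4 CPM in WT1 to WT4. All 4 CD25_KO libraries lay below all WT libraries, and it had the lowest fold change and smallest unadjusted p of the 53 (log2 fold change -0.98 ± 0.25 SE, 95% interval -1.53 to -0.43; edgeR unadjusted p = 0.00279, adjusted p = 0.391). The other complex members differed less. Zwilch had 15.1, 19.6, 6.31 and 20.3 CPM in KO1 to KO4 and 21.4, 20.7, 16.2 and 22.0 CPM in WT1 to WT4, with overlap through WT3. Zw10 had 76.9, 86.9, 82.3 and 78.0 CPM in KO1 to KO4 and 90.9, 91.3, 82.0 and 79.5 CPM in WT1 to WT4. Its log2 fold change of -0.09 ± 0.09 (SE) had a 95% interval of -0.29 to 0.12, and KO3 was not its lowest library. Per kilobase of exon, Zw10 lay at 21.8 CPM over all libraries, against 4.13 for Zwilch and 3.83 for Kntc1. ZW10 also acts in membrane traffic outside mitosis.

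The checkpoint kinases and their partners had lower values in every CD25_KO library than in any WT library. Bub1, the kinase that marks centromeres and recruits other checkpoint proteins, had 51.2, 70.5, 33.7 and 67.7 CPM in KO1 to KO4, against 96.1, 93.6, 76.4 and 84.9 CPM in WT1 to WT4 (log2 fold change -0.65 ± 0.21 SE; edgeR unadjusted p = 0.0118, adjusted p = 0.391). Bub1b, which encodes BUBR1 of the mitotic checkpoint complex, had 119, 171, 85.0 and 178 CPM in KO1 to KO4 and 203, 232, 209 and 199 CPM in WT1 to WT4. Bub3, the shared binding partner of both, had the narrowest difference of these, with 331, 386, 278 and 375 CPM in KO1 to KO4 and 392, 448, 438 and 431 CPM in WT1 to WT4. Its log2 fold change was -0.32 ± 0.11 (SE; edgeR unadjusted p = 0.0193, adjusted p = 0.391). Mad2l1, the MAD2 inhibitor of CDC20, and Ttk, the MPS1 kinase at the head of the checkpoint, had log2 fold changes of -0.59 and -0.57. Ttk was tight in WT, at 61.7, 64.3, 62.6 and 65.0 CPM, and KO4 lay just under that range at 61.6 CPM, while KO1, KO2 and KO3 lay at 32.9, 51.0 and 25.5 CPM.

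**Figure D3:**
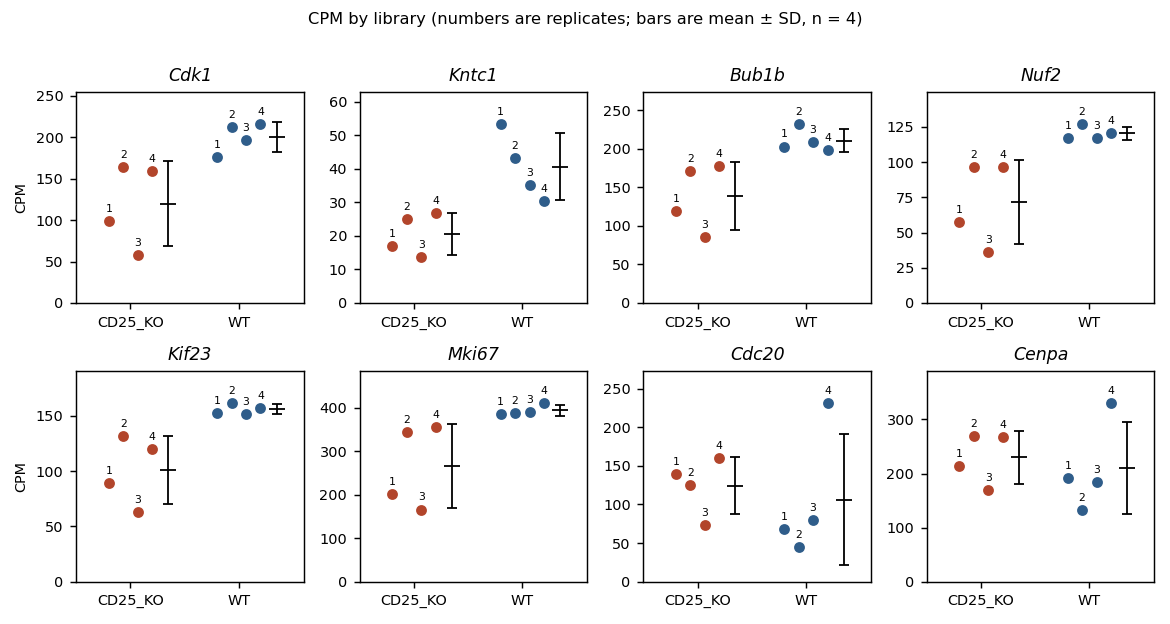
CPM in each library for 8 members, CD25_KO left of WT, with replicate numbers above the points and the mean ± SD (n = 4) beside them. In Cdk1, Kntc1, Bub1b, Nuf2, Kif23 and Mki67 all CD25_KO libraries lie below all WT libraries, while Cdc20 and Cenpa overlap and have WT4 at the top.

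The Aurora kinases and the chromosomal passenger complex, which corrects faulty attachments of microtubules, split between members. All 5 were lower in CD25_KO, with a median log2 fold change of -0.20, and 2 of 5 reached an unadjusted p under 0.05. Aurka, the Aurora kinase of the spindle poles, had 61.0, 83.4, 39.2 and 79.1 CPM in KO1 to KO4, against 94.2, 104, 89.8 and 104 CPM in WT1 to WT4. Birc5, which encodes survivin, had 133, 210.1, 83.0 and 182 CPM in KO1 to KO4, against 215, 254, 233 and 256 CPM in WT1 to WT4. Neither gene had an overlap between groups, and the log2 fold changes were -0.58 ± 0.21 for Aurka and -0.66 ± 0.24 for Birc5 (SE). The other 3 genes overlapped. Aurkb, the kinase of the complex, had 109, 141, 77.6 and 126 CPM in KO1 to KO4 and 142, 107, 124 and 149 CPM in WT1 to WT4. Cdca8, the borealin subunit, had 111, 139, 65.2 and 134 CPM in KO1 to KO4 and 117, 75.0, 109 and 164 CPM in WT1 to WT4. For Cdca8 the range of WT held 3 of the 4 CD25_KO libraries, with KO3 below it. Incenp, the scaffold of the complex, had a log2 fold change of -0.14 ± 0.17 (SE).

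Among the genes of anaphase onset and sister cohesion, 5 of 6 were lower in CD25_KO with a median log2 fold change of -0.23. Sgo1, shugoshin, which protects centromeric cohesin until anaphase, was the single member at an unadjusted p under 0.05. It had 31.4, 48.2, 20.4 and 51.0 CPM in KO1 to KO4, against 56.5, 59.6, 54.5 and 58.7 CPM in WT1 to WT4, with no overlap (log2 fold change -0.60 ± 0.25 SE; edgeR unadjusted p = 0.0379, adjusted p = 0.391). Cdc20, the activator of the anaphase-promoting complex and the target of the checkpoint, had the highest fold change of the 53. Cdc20 (ENSMUSG00000006398.15, chromosome 4, 118432901 to 118437352 on the minus strand of mm10) had 139, 125, 73.3 and 160.2 CPM in KO1 to KO4, against 68.7, 44.4, 79.4 and 232 CPM in WT1 to WT4. WT4 stood above all CD25_KO libraries while WT1 and WT2 lay below all of them, and the log2 fold change of 0.23 ± 0.46 (SE) had a 95% interval of -0.81 to 1.26. Pttg1, securin, varied little among the CD25_KO libraries, with 34.3, 36.5, 34.0 and 35.9 CPM in KO1 to KO4 and 33.5, 43.7, 43.3 and 36.3 CPM in WT1 to WT4. Ube2c, the ubiquitin-conjugating partner of the anaphase-promoting complex, and Espl1, separase, had log2 fold changes of -0.41 and -0.30, and both overlapped. Sgo2a, the second shugoshin, had the lowest level per length of the 53, at 1.74 CPM per kilobase of exon in CD25_KO and 1.92 in WT.

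At the kinetochore and centromere 7 of 8 members were lower in CD25_KO, with a median log2 fold change of -0.60, and 5 of 8 reached an unadjusted p under 0.05. Nuf2 and Ndc80, the arm of the NDC80 complex that grips microtubules, were lower in every CD25_KO library than in any WT library. Nuf2 had 57.5, 96.7, 36.4 and 96.7 CPM in KO1 to KO4, against 117, 127, 117 and 121 CPM in WT1 to WT4, a log2 fold change of -0.75 ± 0.27 (SE; edgeR unadjusted p = 0.0204, adjusted p = 0.391). Ndc80 had 73.3, 103, 47.9 and 105 CPM in KO1 to KO4, against 125, 136, 117 and 125 CPM in WT1 to WT4. The inner pair of the same complex differed less, with log2 fold changes of -0.06 ± 0.30 for Spc24 and -0.47 ± 0.27 for Spc25 (SE), and the groups overlapped in both. The motor gene Cenpe, the corona gene Cenpf and the spindle-binding Knstrn, with log2 fold changes of -0.63, -0.67 and -0.58, had no overlap. Cenpa, the histone variant that marks centromeres, had 213, 270.2, 169 and 267 CPM in KO1 to KO4 and 192, 132, 184 and 331 CPM in WT1 to WT4. In Cenpa, KO1, KO2 and KO4 exceeded every WT library but WT4, and the log2 fold change was 0.13 ± 0.26 (SE).

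Of the spindle motors, microtubule binders and cytokinesis genes, all 10 were lower in CD25_KO, with log2 fold changes between -0.75 and -0.44 and a median of -0.61, and 8 of 10 reached an unadjusted p under 0.05. Anln, the anillin scaffold of the cleavage furrow (ENSMUSG00000036777.8, chromosome 9, 22332012 to 22389188 on the minus strand of mm10), had 35.8, 56.7, 30.9 and 62.5 CPM in KO1 to KO4, against 86.9, 81.3, 76.6 and 68.2 CPM in WT1 to WT4. The groups did not overlap, and the log2 fold change was -0.75 ± 0.22 (SE; edgeR unadjusted p = 0.00674, adjusted p = 0.391). Kif23, a motor of the central spindle, had 89.7, 132, 63.3 and 119.9 CPM in KO1 to KO4, against 153, 162, 152 and 157 CPM in WT1 to WT4, again with no overlap. Nusap1, a microtubule-bundling protein, had the highest level of the group per length, at 47.9 CPM per kilobase of exon in CD25_KO and 76.6 in WT. Kif11, the motor that pushes the spindle poles apart, overlapped. It had 171, 283, 129 and 324 CPM in KO1 to KO4 and 342, 254, 292 and 345 CPM in WT1 to WT4, so that KO2 and KO4 both exceeded WT2. Tpx2, Kif20a, Kif2c, Nusap1, Hmmr and Prc1 had no overlap, while Kif4 overlapped by KO4 at 70.3 CPM and WT3 at 68.1 CPM.

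Among the condensin and chromosome structure genes 6 of 7 were lower in CD25_KO, with a median log2 fold change of -0.54, and 5 of 7 reached an unadjusted p under 0.05. Top2a, the topoisomerase that untangles sister chromatids (ENSMUSG00000020914.17, chromosome 11, 98992943 to 99024189 on the minus strand of mm10), had 439.7, 755, 319 and 759 CPM in KO1 to KO4, against 924, 990.4, 846 and 861 CPM in WT1 to WT4. Mki67, which coats mitotic chromosomes and is the usual marker of cycling cells, had 202, 344, 166 and 355 CPM in KO1 to KO4, against 387, 388, 390.0 and 412 CPM in WT1 to WT4. In both genes KO2 and KO4 lay a little under the WT libraries and KO1 and KO3 far under them, with log2 fold changes of -0.67 ± 0.25 for Top2a and -0.56 ± 0.23 for Mki67 (SE). Of condensin, Smc2 and Ncaph had no overlap between groups, with log2 fold changes of -0.59 and -0.53, while Ncapd2 (-0.42) and Ncapg (-0.54) overlapped. Ncaph had 99.5, 137, 70.5 and 139 CPM in KO1 to KO4, against 164, 169, 144 and 167 CPM in WT1 to WT4. Smc4, the partner ATPase of Smc2, had 239, 284, 174 and 347 CPM in KO1 to KO4 and 241, 165, 226 and 399.8 CPM in WT1 to WT4. Its log2 fold change was 0.02 ± 0.28 (SE) with TMM and -0.05 with upper quartile factors.

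A set of 8 members, chosen after their values were seen, had more than 2-fold higher CPM in WT4 than in WT2. They were Ccna2, Mybl2, Cdca8, Cdc20, Sgo2a, Cenpa, Spc24 and Smc4, and their ratios of WT4 to WT2 ran from 2.19 in Cdca8 to 5.22 in Cdc20. Over all tested genes 15.4% had such a ratio, a share close to that among the members. The 4 members with higher values in CD25_KO were all among these 8, whose log2 fold changes ran from -0.14 to 0.23. As a wide gap between WT libraries chose these 8, their p-values are not set against those of the other 45. WT4 and WT2 also differed in other ways, since WT2 held Y-linked counts and WT4 had 9016 CPM of erythroid markers against 3392 CPM in WT2. What part these have in the ratios was not tested.

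Other genes of the pathway were read from a list of 102, of which 77 were lower and 25 higher in CD25_KO, with a median log2 fold change of -0.32. None was called by edgeR, DESeq2 or limma-voom. At an unadjusted p under 0.05, 45 (44.1%) were lower and 3 higher, against 7.11% of all tested genes lower and 5.53% higher. Of 27 further kinetochore genes 26 were lower, with a median of -0.48, and of 21 further spindle and cytokinesis genes 19 were lower, with a median of -0.57. Cohesin and condensin II genes had 10 of 13 lower with a median of -0.24. The 22 further regulators of G2 and M phase had a median of -0.05, with 13 lower, and the 19 genes of the anaphase-promoting complex and its regulators a median of 0.00, with 9 lower and 10 higher. Bora, the cofactor by which Aurora A activates Plk1, had 36.8, 41.7, 28.8 and 43.4 CPM in KO1 to KO4, against 58.0, 51.8, 50.7 and 55.6 CPM in WT1 to WT4 (log2 fold change -0.52 ± 0.14 SE; edgeR unadjusted p = 0.00419, adjusted p = 0.391). Ckap5, a microtubule polymerase, had 91.7, 159, 93.2 and 147 CPM in KO1 to KO4, against 213, 246, 189 and 163 CPM in WT1 to WT4. Neither Bora nor Ckap5 overlapped between groups. In the other direction, Anapc2, the cullin of the anaphase-promoting complex, had 129, 103, 128 and 120.5 CPM in KO1 to KO4, against 79.8, 48.5, 75.0 and 103 CPM in WT1 to WT4. Numa1, which anchors dynein at the spindle poles, had 92.4, 90.7, 124 and 112 CPM in KO1 to KO4, against 87.3, 61.1, 78.5 and 77.7 CPM in WT1 to WT4, with no overlap.

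Genes of DNA replication and S phase had the same order of libraries at the low end. Of 38 on the list 32 were lower in CD25_KO, with a median log2 fold change of -0.39 and 0 called. At an unadjusted p under 0.05, 20 (52.6%) were lower and 0 higher, against 7.11% of all tested genes lower and 5.53% higher. Their mean deviation was -0.16, 0.08, -0.65 and 0.06 in KO1 to KO4 and 0.27, 0.01, 0.04 and 0.35 in WT1 to WT4, so KO3 was lowest and KO1 next in this list too.

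Markers of several other cell types were low in the same libraries. Erythroid markers, 12 genes that include the globins, summed to 562, 2143, 1204 and 2638 CPM in KO1 to KO4, against 3593, 3392, 4304 and 9016 CPM in WT1 to WT4, with no overlap, and 10 of the 11 tested were lower in CD25_KO. The alpha globin gene Hba-a1 had 70.8, 474, 250.2 and 543 CPM in KO1 to KO4, against 836, 702, 976 and 2179 CPM in WT1 to WT4, while the transferrin receptor gene Tfrc, which other dividing cells also express, lay at 243 to 421 CPM over the 8 libraries. Natural killer cell markers, 11 genes, summed to 17.1, 38.6, 10.8 and 37.9 CPM in KO1 to KO4 and 61.0, 47.4, 44.4 and 42.0 CPM in WT1 to WT4, again with no overlap. Neutrophil markers, 12 genes, summed to 178, 490.0, 120.1 and 302 CPM in KO1 to KO4 and 260.2, 565, 286 and 332 CPM in WT1 to WT4, and monocyte markers to 39.3 to 162 CPM in CD25_KO and 127 to 221 CPM in WT. The groups overlapped in the neutrophil and monocyte sums. KO1 and KO3, the libraries lowest in the division genes, were also the lowest 2 in all 4 of these lists. They were the lowest 2 in the platelet list as well, at 3.44 CPM in KO1 and 0.882 CPM in KO3. T cell markers (21.8 to 33.7 CPM in CD25_KO, 29.9 to 38.7 in WT), plasma cell markers (514 to 635 and 508 to 582), stem cell markers (11.5 to 15.9 and 12.5 to 16.9) and platelet markers (0.882 to 11.3 and 4.15 to 11.2) overlapped too. No marker was called, and no marker was at 0 in all 8 libraries, but Mpo and Ctsg of the neutrophil list and Pf4 of the platelet list were at 0 in KO3, and Cd3e of the T cell list was at 0 in KO3, WT1 and WT3. The part of these cells in the division genes was not tested.

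**Figure D4:**
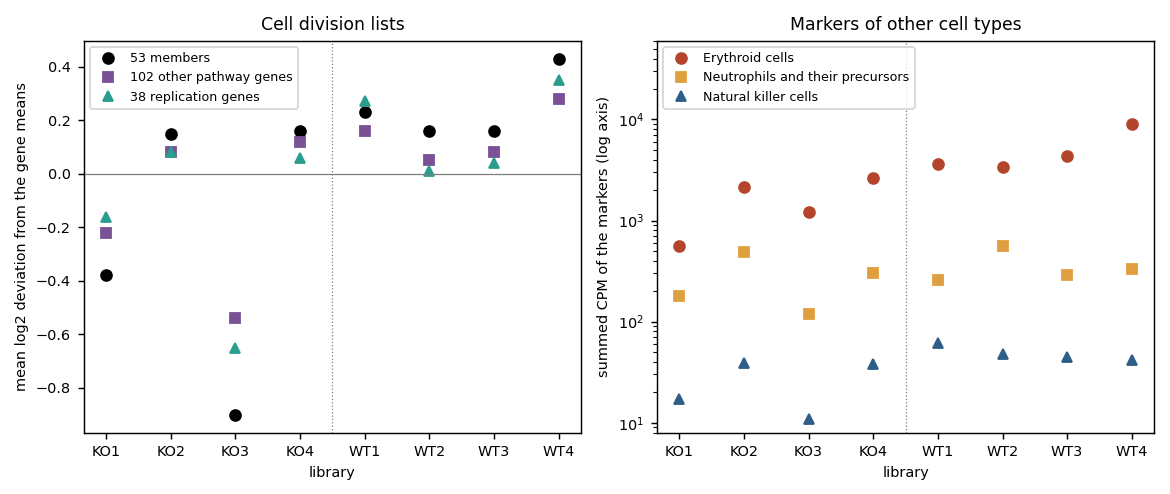
Left, mean log2 deviation of the 53 members, 102 other pathway genes and 38 replication genes in each library. Right, summed CPM of erythroid, neutrophil and natural killer cell markers on a log axis, with CD25_KO libraries left of WT in both. KO1 and KO3 are the lowest 2 libraries in every list drawn. The sums of erythroid and natural killer markers do not overlap between groups, although single markers such as Epor and Prf1 do.

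The Y-linked counts gave a split of the libraries that the labels do not record, and the genotype effect was read within each side of it in a fit added after the data were seen. Without Y-linked counts, KO1 and KO3 were set against WT1, WT3 and WT4. All 53 members were lower, with a median difference of -1.01 on the log2 scale (range -1.50 to -0.06, median over all genes 0.00), and 21 fell past the adjusted threshold in edgeR, with adjusted p between 0.0469 and 0.0499. Over all tested genes 0.625% were called lower and 0.0583% higher. At an unadjusted p under 0.05 there were 42 members, all lower, against 20.1% of all tested genes in either direction. The smallest adjusted p over all genes was also 0.0469, so these calls sat just inside the threshold. In 38 members KO3 was already the lowest library and KO1 the second lowest, so a larger fall on this side follows from the split. All 21 calls rest on these same CD25_KO libraries, and the members are not separate support for a genotype effect. The 21 were all 10 spindle motor and cytokinesis genes, Cenpe, Cenpf, Nuf2 and Knstrn of the kinetochore, Bub1b, Mad2l1 and Ttk of the checkpoint, Ccnb1 and Cdc25c, and Top2a and Mki67. Ccnb1 fell to 0.353 of its WT level on this side, Nuf2 to 0.397, Top2a to 0.432 and Mki67 to 0.465. None of the Aurora and passenger complex genes or of the anaphase genes was called. Their edgeR adjusted p ran from 0.0505 in Sgo1 to 0.834 in Cdc20, so the nearest missed the threshold narrowly.

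With Y-linked counts, KO2 and KO4 stood against WT2 alone, which was assumed to vary like the other libraries. Of the members 35 were lower and 18 higher, with a median log2 fold change of -0.24 (range -0.74 to 1.68), and edgeR called 0, with 0.00530% of all tested genes called lower and 0% higher. Of the members 3 were lower and 5 higher at an unadjusted p under 0.05, against 11.9% of all tested genes in either direction. Kntc1 had a log2 fold change of -1.37 ± 0.25 without and -0.74 ± 0.32 with Y-linked counts (SE), and Cdc20 one of -0.26 ± 0.54 without and 1.68 ± 0.79 with them (SE). The difference between both sides was tested directly as an interaction. No gene was called (smallest adjusted p of a member 0.668 in edgeR). At an unadjusted p under 0.05 there were 32 members, against 7.01% of all tested genes in either direction. The fold change with Y-linked counts minus that without them had a median of 0.87 over the members and 0.14 over all genes on the log2 scale. Every member's difference rests on the same single library WT2, whose spread was assumed, so these counts and medians are a description and the members are not separate support for a difference between both sides. As WT2 is the only WT library with Y-linked counts and also held Xist, sex and that library cannot be told apart.

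**Figure D5:**
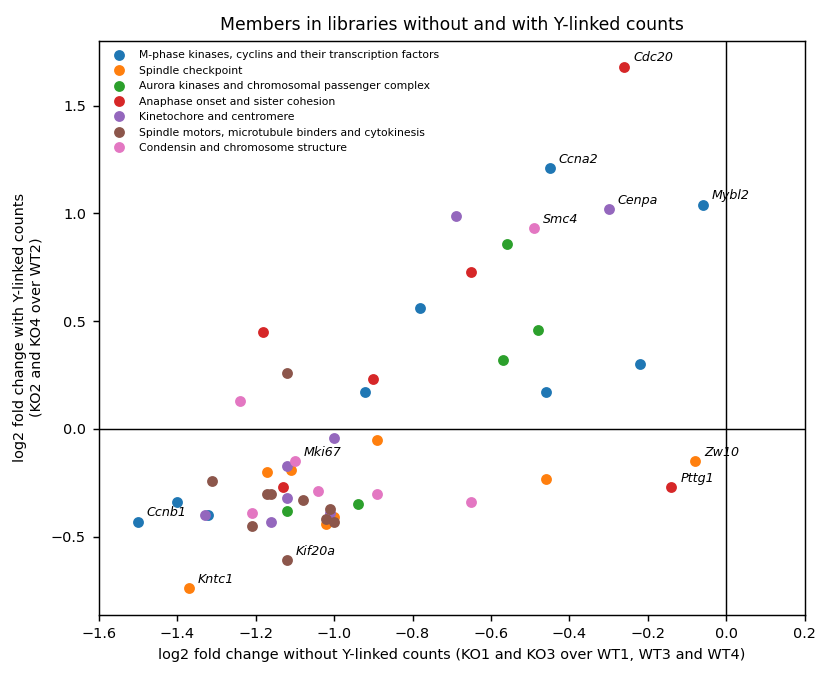
Log2 fold change of each member within libraries without Y-linked counts (x axis, KO1 and KO3 over WT1, WT3 and WT4) and with them (y axis, KO2 and KO4 over WT2), coloured by role. All 53 points lie left of 0 on the x axis between -1.50 and -0.06, while 35 lie below and 18 above 0 on the y axis.

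With 2 changes made together, leaving out WT4 and adding sex as a covariate, edgeR called 31 members, all lower, with a median log2 fold change of -0.70 and a smallest adjusted p of 0.00512, and 20 of these were among the 21 above. The same fit called 11.9% of all tested genes higher and 4.04% lower. Either change alone gave 0 called members. At an unadjusted p under 0.05, 26 members passed without WT4, 23 of them lower, where 4277 of 19506 genes passed in either direction. With the covariate 34 members passed, all lower, where 4646 of 18884 genes passed in either direction. Without WT4 and without the covariate, 1.84% of all tested genes were called higher and 0.0256% lower, and with the covariate and all 8 libraries edgeR called 0 genes.

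The members share no single place in the genome and differ in how cleanly they can be counted. They lie on 16 chromosomes, with 11 on chromosome 2 and 7 on chromosome 9. Their median GC content was 46.6% (34.8% to 56.3%), against 48.6% for all tested genes, and values ran from 5.45 to 990.4 CPM over all members and libraries. Exons of 18 members overlap another gene, and in 8 the largest overlap exceeds 10% of exon bases: Ccna2 with Exosc9, Cdc25c with Gm3550, Ube2c with Tnnc2, Sgo2a with Kctd18, Kif20a with Cdc23, Kif4 with Pdzd11, Prc1 with Rccd1 and Ncapg with Lcorl. All 8 partners lie on the opposite strand, and as no strand option is recorded for the counting, reads of the pair cannot be told apart. The pseudogene Ccnb1-ps held 10640 counts over the 8 libraries, Ccnb2-ps 1527 and Kif4-ps 25. Since fragments with several alignments were counted at each, Ccnb1, Ccnb2 and Kif4 are uncertain to that extent. Only pseudogenes named by a member's symbol with the ending -ps were searched for. Copies under other names, such as Gm numbers, were not looked for in any member.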

How the data were processed

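Samples were grouped by the genotype in their labels, 4 libraries per group. Per the labels, Trizol was used to isolate RNA and a SMARTER mRNA-Seq kit to build the libraries. The values are raw counts per gene, deposited by the authors. Per the file headers, featureCounts 2.0.1 counted them in paired mode on the exons of GENCODE M25, counting every alignment of fragments with several, and no strand option is recorded. STAR 2.7.7a and GATK 4.1.9.0 with the mm10 build are named in the submitters' processing notes, and what GATK was used for is not recorded there. The summed exon length of each gene, of the unit other, was deposited by the authors in the same table per the file headers and served only for levels per kilobase. The table had 0 columns of other samples. Symbols came from GENCODE M21 by identifier (55141 named, 346 not), and coordinates from the deposited table.

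From the counts, genes were filtered with filterByExpr (18884 left), scaled with TMM and tested in edgeR 4.0.16 (robust glmQLFit, glmQLFTest, two-sided, genotype only, Benjamini-Hochberg over all genes at 0.05) in R 4.3.3. The common biological coefficient of variation was 0.308. Standard errors come from the F statistic of each gene. The fit was tested on simulated data. List deviations use log2 CPM with a prior count of 2. No pair of libraries of 1 group came within sampling noise (in 12 pairs, chi-square over degrees of freedom was at least 30.5), so each counted once. Correlations of deviations between same-numbered libraries ran from -0.03 to 0.64, so the numbers were not taken to pair the libraries. Alternatives were other scaling, filters, DESeq2 1.42.0, limma-voom (limma 3.58.1), a replicate block, a GC trend (loess span 0.5), leaving out each library, leaving out abundant transcripts and a sex covariate. The fits within libraries with or without Y-linked counts (above or below 5 CPM) were chosen after seeing the data.

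The members, role groups and lists were chosen with earlier results of these data known. Genes named were Il2ra, in each role group the members with the smallest p, the largest and smallest fold change and the highest level per kilobase, the complex of Kntc1, Zwilch and Zw10, a set of reference members, and of the pathway list the 2 with the smallest p in each direction. Other members were named after their values were seen.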

Additional observations from a re-analysis of the deposited data

Results flagged for a closer look

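Among the 108 groups of 4 libraries checked (the 53 members and their mean deviation in each genotype), 5 held a library whose gap to its nearest neighbour exceeded Dixon's 95% critical share of the group's range, and chance gives about 1 in 20 groups. Ccna2, cyclin A2, had 145 CPM in WT4, against 30.1 to 45.1 CPM in the other WT libraries. Sgo2a had 24.8 CPM in WT4, against 8.99 to 10.6 CPM in the others. Mki67 had 412 CPM in WT4, against 387 to 390.0 CPM in the others, a small difference within a narrow group. Kif2c, a microtubule depolymerase, had 101 CPM in WT2, against 87.9 to 89.8 CPM in the others. Cdc25b, an activator of CDK1, had 221 CPM in KO1, against 278 to 288 CPM in the other CD25_KO libraries.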

How the results depend on the processing

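The median log2 fold change of the members stayed negative under every alternative run, from -1.01 within libraries without Y-linked counts to -0.24 within those with them. Leaving out each library gave -0.72 to -0.38. Members at an unadjusted p under 0.05 numbered 29 in the reported fit, 17 with no count filter and 8 to 34 on leaving out each library. Over all tested genes, 2388 of 18884 passed in either direction in the reported fit and 3427 of 45851 with no count filter. The 8 came without WT2, where 1208 of 19342 genes passed, and the 34 without KO4, where 2322 of 19223 passed. Members called by edgeR stayed at 0 except for 31 without WT4 and with sex as a covariate and 21 without Y-linked counts. Of the 102 other pathway genes these fits called 51 and 17, counted in either direction. Over all tested genes the first fit called 11.9% higher and 4.04% lower, and the second 0.0583% higher and 0.625% lower. Leaving out each library gave 0 members and 0 to 3 other pathway genes. The 3 came without WT4, where 1.84% of all tested genes were called higher and 0.0256% lower. Among all genes tested, DESeq2 called 6, and edgeR called 3112 without WT4 and with sex as a covariate, 129 without and 1 with Y-linked counts, and 0 to 363 on leaving out each library, the last without WT4. The cause was not tested.

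The replicate numbers were not shown to pair the libraries. With the replicate block the members' median was -0.65, 33 were at an unadjusted p under 0.05 and 0 were called. With the block and the GC trend removed these were -0.64, 37 and 0. Over all 18884 tested genes, 3057 passed that unadjusted p in either direction with the block. With the block and the GC trend removed 3042 passed, against 2388 in the reported fit. Libraries of one number did not always correlate best with each other, since KO1 and WT4 had r = 0.64 and KO1 and WT1 had 0.01.

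Single members changed sign as follows, none past the threshold. Within libraries with Y-linked counts the log2 fold change was 0.32 for Aurkb, 1.21 for Ccna2, 0.56 for Ccnb2, 0.30 for Cdc25b, 0.86 for Cdca8, 0.23 for Espl1, 0.17 for Foxm1, 0.46 for Incenp, 0.26 for Kif11, 0.13 for Ncapg, 0.17 for Plk1, 0.73 for Sgo2a, 0.99 for Spc24 and 0.45 for Ube2c. Within those without them it was -0.26 for Cdc20, -0.30 for Cenpa, -0.06 for Mybl2 and -0.49 for Smc4. With limma-voom it was 0.45 for Ccna2, 0.10 for Cdca8, 0.25 for Sgo2a and 0.08 for Spc24. Without WT4 and with sex as a covariate it was 0.70 for Ccna2, 0.10 for Cdca8, 0.25 for Sgo2a and 0.06 for Spc24. Ccna2 had 0.11 with the replicate block, with or without the GC trend, and 0.10 with sex as a covariate, and Smc4 had -0.01 with sex and -0.05 with upper quartile factors, which moved the median of all genes to -0.09 (members -0.66). Leaving out each library in turn gave -0.28 to 0.70 for Ccna2, -0.37 to 0.01 for Ccnb2, -0.01 to 0.95 for Cdc20, -0.10 to 0.03 for Cdc25b, -0.19 to 0.16 for Cdca8, -0.01 to 0.44 for Cenpa, -0.01 to 0.70 for Mybl2, -0.27 to 0.34 for Sgo2a, -0.15 to 0.31 for Smc4 and -0.20 to 0.16 for Spc24.

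Each member had at least 5.45 CPM in every library. The comparison rests on 4 libraries per group, of which the CD25_KO libraries are unequal. Among the CD25_KO libraries, sex-linked counts and marker levels of several other cell types differ along the same lines. KO1 and KO3 are without Y-linked counts and lowest in those markers. WT1, WT3 and WT4 are also without Y-linked counts, with mean deviations of the members of 0.23, 0.16 and 0.43.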
